A study of Mus musculus with 16 samples.

Results

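The Ccdc genes are the mouse genes named for a predicted coiled-coil domain, and 137 of the 21887 protein-coding genes of the RefSeq annotation carry a symbol of Ccdc, a number and at most 1 further letter. They were followed through the peak lists of 3 transcription factors, Foxn3, Foxn4 and Rfx3, in the embryonic mouse retina. A gene was counted as bound in a list where the midpoint of a peak lay within 1 kb of either annotated end of the gene. The rule for membership used gene names only.

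The data came from CUT&RUN, in which an antibody tethers micrococcal nuclease to a chromatin protein so that the DNA beside it is released and sequenced. All 16 libraries were made from pooled, dissociated retinas of CD-1 mice, an outbred strain, at embryonic day 16, with about 300000 live cells per assay and no genetic change or treatment. Antibodies to Foxn3 gave 4 libraries, those to Foxn4 gave 2 and those to Rfx3 gave 2. The IgG controls were from rabbit for Foxn3 (4) and for Rfx3 (2), and from mouse for Foxn4 (2). Digestion took 1 h, but about 12 h for the Foxn4 and mouse IgG libraries, so for Foxn4 the antibody and the digestion cannot be told apart. The whole retina holds several cell types and no cell type can be read from a peak list, so the tissue label was not checked against markers. The lists held 2794 peaks for Foxn3, 2956 for Foxn4 and 3981 for Rfx3. Each antibody has 1 list, the IgG libraries were not analysed here and the depth is unknown, so no count below has a spread between replicates and no test of a difference was made. The 95% Wilson intervals cover counting error only.

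A Ccdc symbol records only that a coiled coil was predicted, and the genes do not descend from a single ancestor. Many encode parts of cilia: rulers and docking factors that place dynein motors on the microtubule doublets of motile cilia, or proteins of the centriole and basal body from which every cilium grows. Retinal photoreceptors carry a modified primary cilium, the connecting cilium and outer segment. Rfx3 belongs to the RFX family, which activates ciliary genes through the X-box, a pair of inverted arms read as GTTGC and GCAAC. Foxn3 and Foxn4 are forkhead factors, a family whose usual motif is TGTTTAC, and members of the FoxN group can also read GACGC, the FHL motif.

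The sequences below are shown because they carry X-box-like arms inside the bound promoters. The planned X-box, GTTGC, any 4 bases and GCAAC, is rare: it was found in 0 of the 36 Rfx3-bound members with a RefSeq promoter window, in 0.927% of all Rfx3-bound genes and in 0.166% of all genes, so the 0 is near the background. A relaxed form was added after the data had been seen: GTTGC, any 3 to 5 bases, G, any 2 bases and AC. Windows are RefSeq promoters of GRCm38.p6, 250 bases before a start site and 50 bases from it on, and both strands were searched. The sites of the 5 bound ciliary members with a match, of Ccdc126, which had the highest-scoring member peaks in the Foxn3 and Rfx3 lists, and of 2 unbound members read as follows, 5′ to 3′ along the matching strand, with the fixed bases in capitals.
Ccdc65: GTTGCtagGagAC
Ccdc96: GTTGCcccggGaaAC
Ccdc103: GTTGCtagGcaAC
Ccdc151: GTTGCtaaGtaAC
Ccdc181: GTTGCcatGgcAC
Ccdc126: GTTGCtaaGcaAC
Ccdc42: GTTGCtagGtaAC
Ccdc175: GTTGCcctgGcaAC

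The Ccdc65 site lay 1 bp from the midpoint of the Rfx3 peak, the Ccdc103 site 25 bp, the Ccdc181 site 28 bp and the Ccdc126 site 30 bp. The Ccdc96 and Ccdc151 sites lay farther out, at 152 and 95 bp, but still inside the peaks of every list. The Ccdc42 site, in a gene with no peak in any list, has the same fixed bases, as does the Ccdc175 site, which was the only planned X-box among the members' windows. A match in the letters therefore did not by itself mark a bound member.

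Whole promoter windows are shown for 5 bound members and 1 unbound member, on the strand of the gene, with all motif matches in capitals (the X-box in both forms, its single RFX arm, the forkhead motif and the FHL motif, on either strand). Ccdc189, Ccdc151, Ccdc13 and Ccdc181 are the bound ciliary members with the highest Rfx3 scores. Ccdc47 had, with Ccdc151, the highest Foxn4 score among the members bound in every list. Ccdc105 is an unbound ciliary member. The windows are chr7:127588546-127588845 (minus strand) for Ccdc189, chr9:22002585-22002884 (minus strand) for Ccdc151, chr9:121839412-121839711 (minus strand) for Ccdc13, chr1:164275348-164275647 (plus strand) for Ccdc181, chr11:106216318-106216617 (minus strand) for Ccdc47 and chr10:78753018-78753317 (minus strand) for Ccdc105.
Ccdc189: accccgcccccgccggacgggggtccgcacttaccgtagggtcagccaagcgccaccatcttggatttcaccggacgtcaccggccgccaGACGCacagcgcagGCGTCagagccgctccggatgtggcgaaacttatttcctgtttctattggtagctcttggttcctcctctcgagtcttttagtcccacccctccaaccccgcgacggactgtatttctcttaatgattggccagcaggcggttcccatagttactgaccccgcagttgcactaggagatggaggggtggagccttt
Ccdc151: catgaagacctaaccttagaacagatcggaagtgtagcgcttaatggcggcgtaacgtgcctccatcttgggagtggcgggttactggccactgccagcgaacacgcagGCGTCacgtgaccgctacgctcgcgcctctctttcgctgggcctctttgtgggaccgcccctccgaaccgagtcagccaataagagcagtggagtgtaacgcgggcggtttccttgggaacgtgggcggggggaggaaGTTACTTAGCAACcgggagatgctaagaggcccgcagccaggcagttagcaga
Ccdc13: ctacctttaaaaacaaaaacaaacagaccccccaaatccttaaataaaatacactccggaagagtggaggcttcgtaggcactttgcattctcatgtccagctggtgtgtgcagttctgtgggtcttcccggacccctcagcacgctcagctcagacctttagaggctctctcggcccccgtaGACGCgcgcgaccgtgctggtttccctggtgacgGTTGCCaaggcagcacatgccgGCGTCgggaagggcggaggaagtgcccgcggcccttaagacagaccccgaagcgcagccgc
Ccdc181: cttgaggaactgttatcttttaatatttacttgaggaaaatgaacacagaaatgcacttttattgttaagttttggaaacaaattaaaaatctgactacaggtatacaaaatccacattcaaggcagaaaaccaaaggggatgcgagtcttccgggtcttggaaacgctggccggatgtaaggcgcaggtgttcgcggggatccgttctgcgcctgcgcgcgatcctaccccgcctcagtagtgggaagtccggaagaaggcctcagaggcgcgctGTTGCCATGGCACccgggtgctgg
Ccdc47: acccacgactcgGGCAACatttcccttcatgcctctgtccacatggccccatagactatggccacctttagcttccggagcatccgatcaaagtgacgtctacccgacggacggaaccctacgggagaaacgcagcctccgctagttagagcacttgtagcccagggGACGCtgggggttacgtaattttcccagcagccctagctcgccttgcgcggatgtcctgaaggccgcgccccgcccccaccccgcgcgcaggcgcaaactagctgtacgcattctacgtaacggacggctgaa
Ccdc105: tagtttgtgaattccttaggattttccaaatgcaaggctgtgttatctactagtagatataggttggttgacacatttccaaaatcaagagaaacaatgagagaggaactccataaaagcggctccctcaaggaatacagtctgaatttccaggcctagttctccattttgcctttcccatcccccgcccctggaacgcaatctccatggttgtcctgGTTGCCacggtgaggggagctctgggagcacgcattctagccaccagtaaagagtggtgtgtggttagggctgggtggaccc

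The Ccdc189 window overlapped peaks of every list and held GACGC matches but no X-box-like site. The Ccdc13 window, bound by Foxn3 and Rfx3, held 1 single RFX arm and 2 GACGC matches. The unbound Ccdc105 window was poorer in CpG than the others, at 0.282 of the count its base composition predicts, against 0.827 to 1 in the bound windows shown.

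Rfx3, which had the longest list, was found at more Ccdc genes than either forkhead factor, as it was over all genes. The Rfx3 list held peaks at 40 of the 137 genes (29.2%, interval 22.2% to 37.3%), where 10.6% of all protein-coding genes were bound. Foxn3 was at 33 genes (24.1%, 17.7% to 31.9%; all genes 8.82%) and Foxn4 at 11 (8.03%, 4.54% to 13.8%; all genes 4.84%). The intervals of the Rfx3 and Foxn3 shares overlapped each other and lay above the shares of all genes, while that of Foxn4 included it. In all, 44 genes were bound in at least 1 list (32.1%, 24.9% to 40.3%; all genes 12.8%) and 7 in every list (5.11%, 2.5% to 10.2%; all genes 3.06%). The other 93 had no peak at an end.

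**Figure D1:**
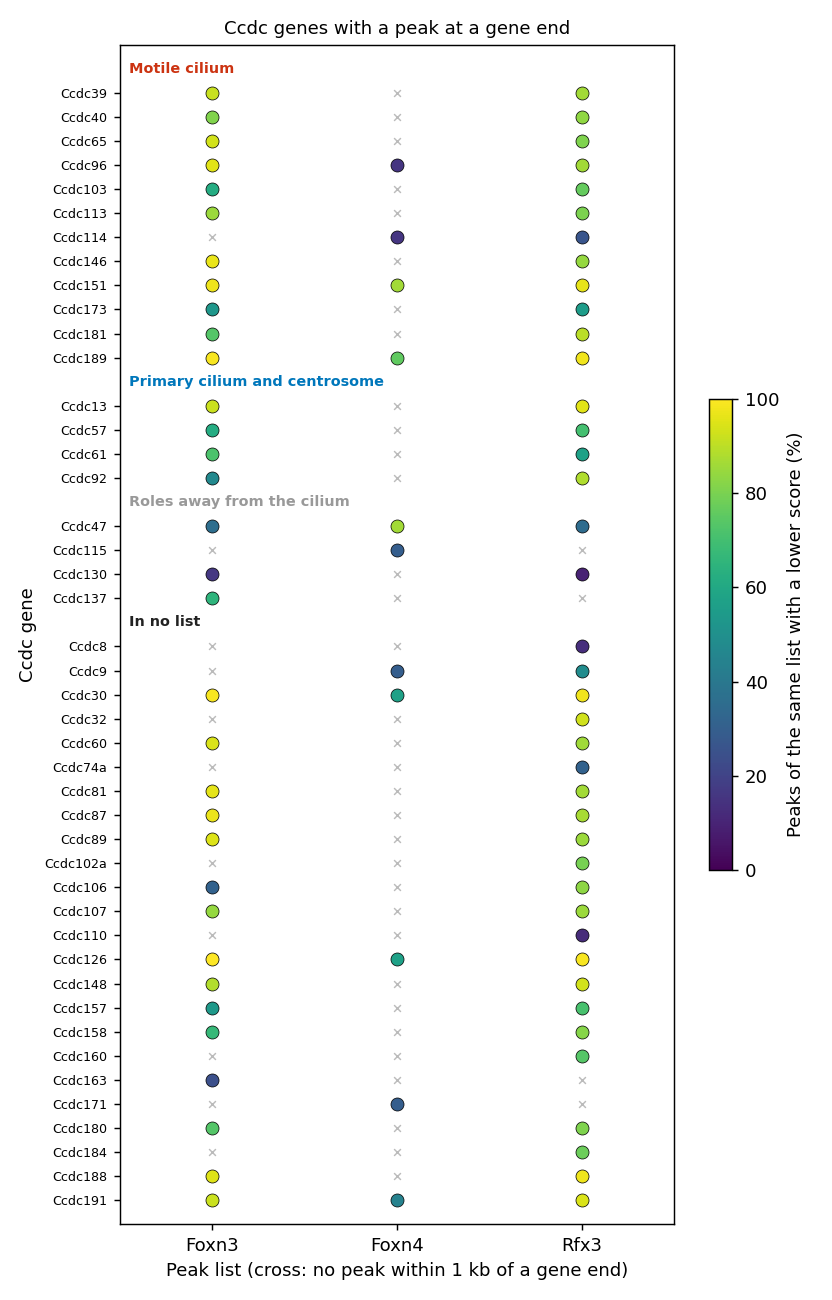
Ccdc genes (rows, by role) bound within 1 kb of an end in each peak list (columns); colour gives the share of that list's peaks, in percent, with a lower score, and a cross marks no peak. The Foxn3 and Rfx3 columns fill together for 31 of the 44 genes, and the Foxn4 column holds 11.

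Foxn3 and Rfx3 shared most of their Ccdc genes, as they did over all genes. Of the 33 bound by Foxn3, 31 were also bound by Rfx3 (93.9%, 80.4% to 98.3%; 85.7% of all Foxn3-bound genes). Seen from Rfx3, 31 of 40 were also bound by Foxn3 (77.5%, 62.5% to 87.7%; 71% of all Rfx3-bound genes). Foxn4 was at 7 of the 33 Foxn3-bound members (21.2%, 10.7% to 37.8%), where 38% of all Foxn3-bound genes had it, and at 9 of the 40 Rfx3-bound members (22.5%, 12.3% to 37.5%; all genes 34%). The sharing between Foxn3 and Rfx3 was near that of all genes, whose shares lay inside both of the members' intervals. The share of all Foxn3-bound genes with Foxn4 lay just above the members' interval. Seen from Foxn4, 9 of its 11 members were bound by Rfx3 (81.8%, 52.3% to 94.9%; all genes 74.8%) and 7 by Foxn3 (63.6%, 35.4% to 84.8%; all genes 69.2%).

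The commonest pattern was therefore Foxn3 with Rfx3 and no Foxn4, at 24 genes (17.5%; all genes 4.5%). Rfx3 alone was at 7 genes (5.11%; all genes 2.52%): Ccdc8, Ccdc32, Ccdc74a, Ccdc102a, Ccdc110, Ccdc160 and Ccdc184. None of the 33 ciliary members was bound by Rfx3 alone (upper bound of the interval 10.4%), near the 2.52% of all genes. Of the 104 remaining members, 6.73% were (3.3% to 13.2%). Ccdc8 encodes a subunit of the 3M complex, which acts with a cullin ubiquitin ligase. Foxn3 alone was at Ccdc137 and Ccdc163 (1.46%; all genes 0.969%), and Foxn4 alone at Ccdc115 and Ccdc171 (1.46%; all genes 0.927%). Ccdc115 encodes an assembly factor of the vacuolar proton pump. Foxn4 with Rfx3 but not Foxn3 was at Ccdc9 and Ccdc114 (1.46%; all genes 0.562%). Foxn3 with Foxn4 but not Rfx3 was at none of the 137 genes, near the 0.292% of all genes.

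Larger shares of the known ciliary members than of the remaining members were bound by Foxn3 and by Rfx3. Of the 33 ciliary genes, Rfx3 was at 16 (48.5%, 32.5% to 64.8%) and Foxn3 at 15 (45.5%, 29.8% to 62%), and all 15 were also Rfx3-bound. Of the 104 remaining members, Rfx3 was at 24 (23.1%, 16% to 32%) and Foxn3 at 18 (17.3%, 11.2% to 25.7%). The intervals of the groups did not overlap, though for Rfx3 they lay within 1 percentage point of each other. They did overlap, for both factors, when only peaks without another gene's end within 1 kb were counted: Rfx3 was then at 8 ciliary (24.2%, 12.8% to 41%) and 18 remaining members (17.3%, 11.2% to 25.7%), and Foxn3 at 7 (21.2%, 10.7% to 37.8%) and 10 (9.62%, 5.31% to 16.8%). The ciliary lists were drawn with results of these data in view and are not independent evidence. With all peaks counted, the remaining members were still bound at shares above those of all genes, and their intervals did not include the 10.6% and 8.82% of all genes. With unshared peaks only, their Rfx3 interval lay above the 6.81% of all genes, but their Foxn3 interval included the 5.33% of all genes. Foxn4 was at 4 ciliary genes (12.1%, 4.82% to 27.3%) and 7 remaining genes (6.73%, 3.3% to 13.2%), with overlapping intervals.

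**Figure D2:**
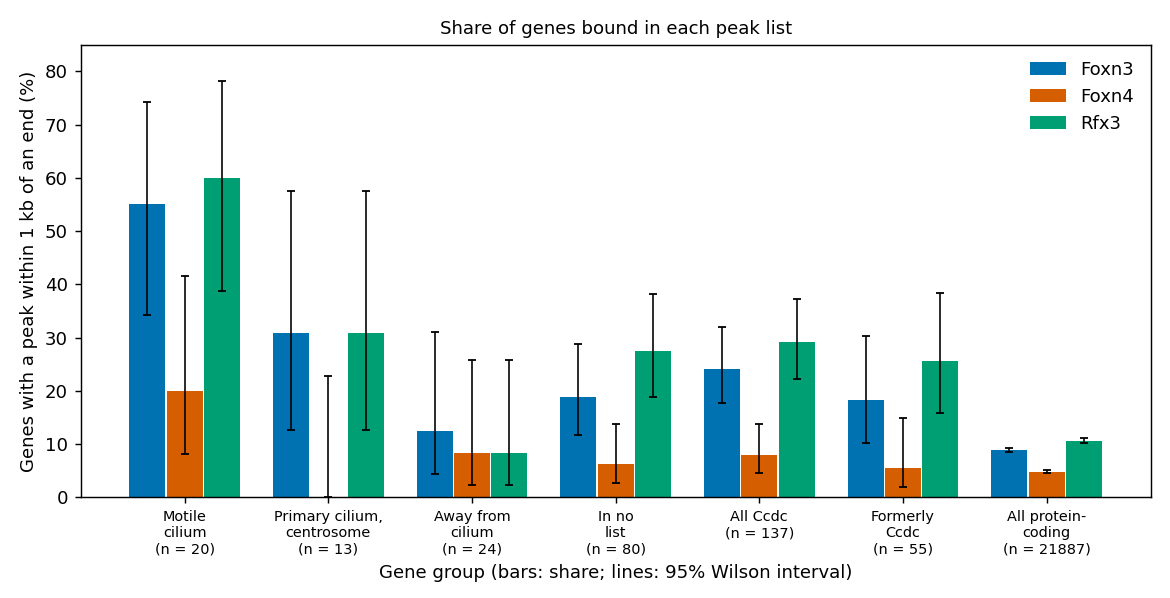
Share of genes, in percent, bound in each list (a midpoint within 1 kb of an end), by gene group; bars give the share and lines the 95% Wilson interval. Motile cilium members reached 60% for Rfx3 and 55% for Foxn3, against 10.6% and 8.82% of all protein-coding genes. All shares count peaks shared with another gene's end, as many of the motile ones were. Members with roles away from the cilium lay at 8.33% and 12.5%, with wide intervals (2.32% to 25.8% and 4.34% to 31%).

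Motile cilium genes made up 12 of the 16 bound ciliary members, and 20 of all 33 ciliary members. Of the 20 genes of the motile cilium list, Rfx3 was at 12 (60%, 38.7% to 78.1%), Foxn3 at 11 (55%, 34.2% to 74.2%) and Foxn4 at 4 (20%, 8.07% to 41.6%). Of the 13 genes of the primary cilium, basal body and centrosome list, Rfx3 and Foxn3 were at the same 4 (30.8%, 12.7% to 57.6%) and Foxn4 at none (upper bound of the interval 22.8%). The intervals of these lists overlapped for each factor. With unshared peaks only, Ccdc40, Ccdc96, Ccdc103, Ccdc146, Ccdc151, Ccdc173 and Ccdc189 of the motile list were no longer bound. Ccdc92 of the other list also dropped out. The motile shares above thus include many peaks shared with another gene's end. Of the 24 members with roles away from the cilium, Foxn3 was at 3 (12.5%), Foxn4 at 2 and Rfx3 at 2 (8.33% each), close to the shares of all genes. The 80 members on none of the lists, whose roles were not assigned here, were bound at 22 genes by Rfx3 (27.5%, 18.9% to 38.1%), 15 by Foxn3 (18.8%, 11.7% to 28.7%) and 5 by Foxn4 (6.25%, 2.7% to 13.8%).

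The axonemal rulers Ccdc39 and Ccdc40, which set the repeat along the microtubule doublet and anchor the inner dynein arms, were both bound by Foxn3 and Rfx3. At Ccdc39 the Foxn3 peak (chr3:33844193-33844628) had a score of 142, above 91.6% of its list, and the Rfx3 peak (chr3:33843997-33844466) a score of 289, above 86.1%. Ccdc40 was unusual in holding 3 Foxn3 peaks beside 1 broad Rfx3 peak of 997 bp (chr11:119228866-119229862, score 246, above 83.3%). The Foxn3 peaks scored above 81%, 78% and 4.12% of their list. Scores are the authors' values, with a scaling that is not stated, and serve here only to rank the peaks of a list.

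The docking factors that attach outer dynein arms differed from each other. Ccdc151 was bound in every list, with Foxn3 above 97.4% of its list (score 278), Rfx3 above 96.3% (score 666) and Foxn4 above 86% (score 11.6). Its partner Ccdc114 had no Foxn3 peak, and its Foxn4 and Rfx3 peaks were weak, above 15.4% and 26.5% of their lists. Ccdc103, which helps dynein arms attach, carried Foxn3 and Rfx3 peaks above 61.4% and 76.3%. The paralogue of Ccdc114 in the testis, Ccdc63, had no peak in any list.

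Members of the linker between neighbouring doublets and of the region at the base of the radial spokes were also bound. Ccdc65, a subunit of the nexin-dynein regulatory complex, carried a Foxn3 peak above 93.1% (score 161) and an Rfx3 peak above 80.8% (score 217). The partners Ccdc96 and Ccdc113 differed in Foxn4: Ccdc96 was in every list, with a Foxn3 score of 210 (above 95.6%), an Rfx3 score of 286 (above 86%) and a Foxn4 score of 5.33 (above 15.4%), whereas Ccdc113 had Foxn3 and Rfx3 peaks only (above 84.8% and 80.2%). Ccdc189, known from the sperm flagellum, had the strongest peaks of the ciliary members. Its Foxn3 peak (chr7:127588086-127588815) ranked 21 of 2794 with a score of 454, its Rfx3 peak (chr7:127588009-127588813) 85 of 3981 with a score of 917, and its Foxn4 peak scored 9.78, above 75.5%.

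The remaining bound motile genes carried Foxn3 and Rfx3 peaks without Foxn4. Ccdc146, a microtubule-associated protein of the sperm flagellum, had a Foxn3 peak ranked 86 (score 259, above 96.8%) and an Rfx3 peak above 84.1%. Ccdc181, a microtubule-binding protein of flagella and motile cilia, stood higher in the Rfx3 list (above 89.6%) than in the Foxn3 list (above 73.2%). Ccdc173, a protein of the doublet lumen, lay near the middle of both lists, above 52.8% and 54.7%.

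Among the centrosomal members, Ccdc13, a protein of the satellites around the centriole, had the strongest peaks, with a Foxn3 score of 144 (above 91.8%) and an Rfx3 score of 612 (rank 172, above 95.7%). Ccdc92, a centriole protein, was high in the Rfx3 list (above 88.2%) and near the middle of the Foxn3 list (above 47.2%). Ccdc57 stood above 61.4% and 70.2% in the Foxn3 and Rfx3 lists and Ccdc61, a basal body protein, above 71.8% and 57.1%. Ccdc57 also had a separate site between 1826 and 1947 bp from its end, outside the limit, with peaks in every list.

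The unbound ciliary members numbered 17: Ccdc34, Ccdc38, Ccdc42, Ccdc63, Ccdc78, Ccdc105, Ccdc153 and Ccdc172 of the motile list, and Ccdc14, Ccdc15, Ccdc18, Ccdc28b, Ccdc66, Ccdc68, Ccdc77, Ccdc120 and Ccdc138 of the other. The group includes Ccdc66, a retinal degeneration gene and component of centriolar satellites, whose nearest peak in any list lay 942280 bp away. It also includes Ccdc78, which takes part in centriole amplification, with the nearest peak 5197 bp away in the Rfx3 list. A gene absent from a list had no peak at the authors' threshold, which is not stated, so absence of binding was not measured.

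Of the 24 members with roles away from the cilium, 4 were bound in at least 1 list (16.7%, 6.68% to 35.9%), near the 12.8% of all genes. Ccdc130, a splicing factor, had Foxn3 and Rfx3 peaks above only 16.2% and 9.75% of their lists, and Ccdc137, a nucleolar protein, a Foxn3 peak above 65%. The Ccdc115 peak in the Foxn4 list stood above 29.3%. Ccdc47, an endoplasmic reticulum protein of the membrane protein insertion machinery, was bound in every list, but Foxn4 stood higher (above 86%) than Foxn3 and Rfx3 (above 35.8% and 34.9%).

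The member peaks with the highest score in the Foxn3 and Rfx3 lists lay at a gene outside the ciliary lists. Ccdc126 was bound in every list, and its Foxn3 peak (chr6:49318996-49319389, score 769) ranked 6 of 2794 and its Rfx3 peak (chr6:49318875-49319410, score 1295) 38 of 3981. The Foxn4 peak there scored 8, above 57.4%. Ccdc30 was similar, with a Foxn3 rank of 22 (score 435), an Rfx3 rank of 90 (score 901) and a Foxn4 score of 8. Ccdc191, also in every list, stood above 91.8% for Foxn3, 94.3% for Rfx3 and 44.1% for Foxn4. Ccdc188 ranked 103 in the Rfx3 list (score 821) and 134 in the Foxn3 list (score 202). In the Foxn3 list, Ccdc87 (score 264, rank 84) and Ccdc81 (score 215, rank 117) were also among the top 5%. Their Rfx3 peaks scored 299 (above 87%) and 286 (above 86%). The other members bound by Foxn3 and Rfx3 were Ccdc60, Ccdc89, Ccdc106, Ccdc107, Ccdc148, Ccdc157, Ccdc158 and Ccdc180.

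Foxn3 and Rfx3 peaks at Ccdc genes stood high in their lists and Foxn4 peaks did not. The median Foxn3 peak at a member (35 peaks) scored above 84.1% of its list, against 52.8% for the 1581 Foxn3 peaks at any gene end, and 9 were in the top 5% (25.7%, against 6.51%). For Rfx3 (40 peaks) the median was 83.2%, against 46.4% for 1941 peaks, and 6 were in the top 5% (15%, against 7.26%). The 12 Foxn4 peaks had a median of 36.7%, against 44.1% for 877 peaks, and none was in the top 5%. Ciliary and remaining members differed little: the medians were 81% and 86.2% for Foxn3 and 83.7% and 82.4% for Rfx3. Widths were near those of other gene-end peaks, with medians of 368, 366 and 473 bp for Foxn3, Foxn4 and Rfx3 against 382, 339 and 487 bp.

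**Figure D3:**
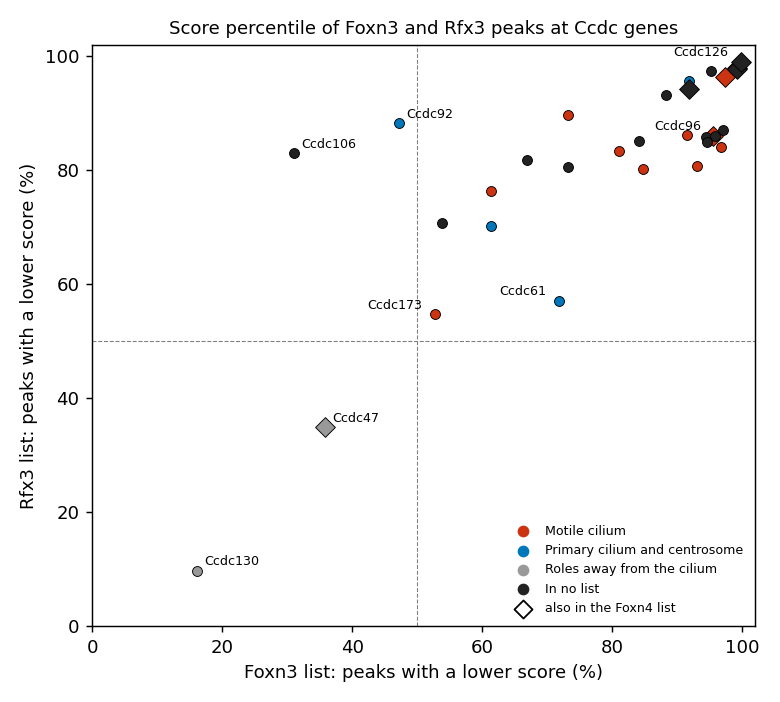
Position of the highest Foxn3 (x axis) and Rfx3 (y axis) peak of each of the 31 Ccdc genes bound by both, as the percent of that list's peaks with a lower score; dashed lines mark 50%, colours give the role and diamonds the genes also bound by Foxn4. Of the 31 genes, 27 lie above 50% in both lists, and Ccdc47 and Ccdc130 lie below it in both.

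Genes high in the Foxn3 list were also high in the Rfx3 list. Across the 31 members bound by both, Spearman's rho between the positions was 0.741, and across all 1654 such genes it was 0.74. These describe genes, which are not replicates, and the peaks compared lie at the same promoters of the same tissue. Where the members differed was in level: 27 of 31 stood at or above 50% in both lists (87.1%), against 811 of 1654 genes (49%). The order over binding patterns differed too. Among members the median Rfx3 position was 37.3% with Foxn4 (2 genes), 73.8% with Rfx3 alone (7 genes), 83.7% with Foxn3 (24 genes) and 96.3% where every list had a peak (7 genes). Among all genes the same medians were 16%, 31.1%, 70.4% and 40.9%, so genes in every list did not stand highest there.

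Peaks of the factors at a member lay at nearly the same place. Of the 35 Foxn3 peaks, 32 overlapped a peak of another list (91.4%, against 88.7% of all gene-end peaks), as did 33 of 40 Rfx3 peaks (82.5%, against 73.9%) and 9 of 12 Foxn4 peaks (75%, against 79%). Overlapping Foxn3 and Rfx3 peaks had midpoints a median of 48.5 bp apart (32 pairs, 2 to 262 bp), against 46 bp at all gene ends. Foxn4 midpoints lay a median of 88 bp from Foxn3 (7 pairs; all gene ends 42 bp) and 69 bp from Rfx3 (9 pairs; 48 bp).

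The bound end was nearly always the start of the gene, as it was for all genes. A RefSeq start site was known for 111 of the 137 members. It was missing for 26, of which Ccdc32, Ccdc81, Ccdc146 and Ccdc191 were bound. The peak was at the start in 31 of 32 Foxn3 gene and peak pairs (96.9%; all genes 94.9%), 11 of 11 for Foxn4 (all genes 94.6%) and 35 of 36 for Rfx3 (97.2%; all genes 94.2%). The exception in both lists was Ccdc106, bound at its other end, where U2af2, a splicing factor gene, also has an end within 1 kb. At Ccdc188 the peaks lay at the upstream gene end but 4035 bp (Foxn3) and 4054 bp (Rfx3) upstream of the nearest RefSeq start site. Midpoints lay a median of 108, 117 and 87.5 bp from the start site for Foxn3, Foxn4 and Rfx3, against 123, 147 and 137 bp for all genes. Foxn4 midpoints lay upstream in 10 of 11 pairs (90.9%; all genes 84.5%), Foxn3 midpoints in 20 of 32 (62.5%; all genes 79.2%) and Rfx3 midpoints in 18 of 36 (50%; all genes 75%).

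**Figure D4:**
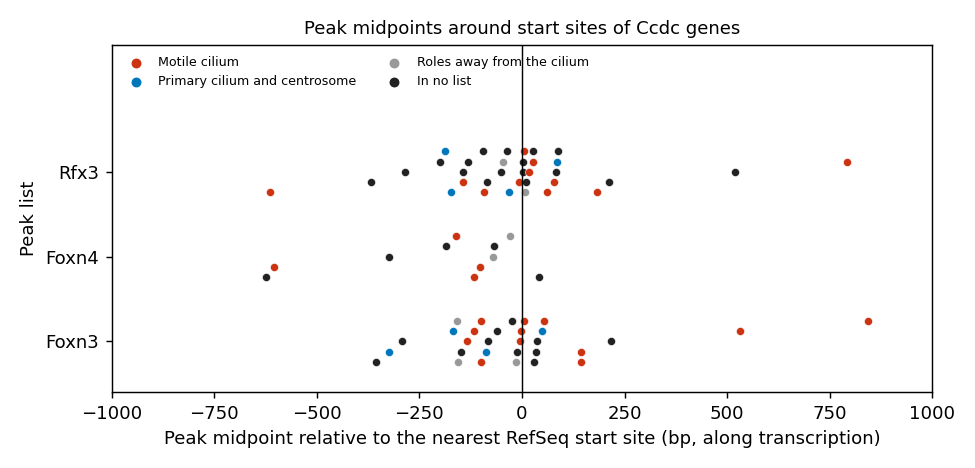
Distance of peak midpoints from the nearest RefSeq start site of each Ccdc gene, in bp along the direction of transcription (negative is upstream), by list; each point is a peak and colours give the role. Points gather within 300 bp of the start site (26 Foxn3, 8 Foxn4 and 30 Rfx3 peaks); Ccdc106 and Ccdc188, beyond 1 kb, are not drawn.

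Many of the bound promoters were shared with another gene, as were many over all genes, so a peak there could not be assigned to the Ccdc gene alone. Of the 44 bound members, 17 had another protein-coding gene's end within 1 kb of a peak midpoint, among them 8 of the 16 bound ciliary members. The shared pairs were Ccdc40 and Tbc1d16, Ccdc47 and Ddx42, Ccdc87 and Ccs, Ccdc92 and Zfp664, Ccdc96 and Tada2b, Ccdc103 and Eftud2, Ccdc106 and U2af2, Ccdc115 and Imp4, Ccdc137 and Oxld1, Ccdc146 and Fam185a, Ccdc148 and Pkp4, Ccdc151 and Prkcsh, Ccdc157 and Sf3a1, Ccdc163 and Mmachc, Ccdc173 and Phospho2, Ccdc189 and Rnf40, and Ccdc191 and Qtrt2. Leaving these peaks out gave 26 members for Rfx3 (19%; all genes 6.81%), 17 for Foxn3 (12.4%; all genes 5.33%), 5 for Foxn4 (3.65%; all genes 2.98%) and 2 in every list, Ccdc30 and Ccdc126. Members stayed above all genes for Rfx3 and Foxn3. For Foxn4 the members' share was near that of all genes, as was the share in every list (1.46%, against 1.78%). Of the 40 Rfx3-bound members, 26 were still bound, against 1490 of all 2329 Rfx3-bound genes. For Foxn3 it was 17 of 33 members, against 1166 of 1930 genes, and for Foxn4 5 of 11, against 653 of 1059.

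Relaxed X-box matches were found in 11 of the 36 Rfx3-bound members with a window (30.6%), in 17.5% of all Rfx3-bound genes, in 4 of 71 unbound members (5.63%) and in 4.29% of all genes. They were in 5 of 15 ciliary members (33.3%) and 6 of 21 remaining members (28.6%), a difference that was not tested. All 12 matches lay inside the Rfx3 peak, a median of 66 bp from its midpoint (1 to 165 bp). The 9 matches at Foxn3-bound members also lay inside a Foxn3 peak. These positions have no background here. The windows were searched only at start sites, where most Rfx3 peaks at members lay, with a median width of 473 bp. A match in such a window would thus tend to fall inside the peak. Besides the sites shown, matches were found at Ccdc60, Ccdc110, Ccdc160, Ccdc180 (2 matches) and Ccdc184, of which Ccdc110, Ccdc160 and Ccdc184 were bound by Rfx3 alone.

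The single RFX arm, GTTGCC, which can lie inside an X-box match, was in 14 of the 36 Rfx3-bound members (38.9%; all Rfx3-bound genes 27%; all genes 14.3%; unbound members 19.7%). The FHL motif was in 21 of the 36 (58.3%), against 55.8% of all Rfx3-bound genes, 36.3% of all genes and 42.3% of unbound members. Counted by window, it was in 20 of 34 windows of Foxn3-bound members (58.8%), against 52.3% for all Foxn3-bound genes. For Foxn4-bound members it was in 13 of 17 windows, from 10 genes (76.5%), against 33.4% of all windows. The share for all Foxn4-bound genes was not computed, so this comparison is unlike that for Foxn3. Windows of all Rfx3-bound genes held the motif in 50%. Several of the 17 windows come from the same gene. The forkhead motif TGTTTAC was rare, in 2 of the 36, Ccdc30 and Ccdc89 (5.56%, against 3.45% of all genes). The Ccdc89 match lay inside no peak. Base content moved with binding, as over all genes. The median GC content of member windows was 59.3% where Rfx3 was bound and 55.5% where no list had a peak, and the CpG ratio, observed over predicted, was 0.704 and 0.574. The windows of all Rfx3-bound genes had 61% and a ratio of 0.788, and all windows 56.3% and 0.567. The part of base content in the motif shares was not tested.

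Partner genes from the same complexes, without a Ccdc name now, were counted beside the members. Their list was also drawn with results of these data in view and is not independent evidence. Peaks shared with another gene's end were not left out. Of 18 partners, 9 were bound by Foxn3 and the same 9 by Rfx3 (50%, 29% to 71%; all genes 8.82% and 10.6%): Ttc25 of the docking complex, Drc1, Gas8, Tcte1, Iqcg and Fbxl13 of the nexin-dynein regulatory complex, and Cep290, Cep162 and Pcm1 of the centrosome and transition zone. Only Pcm1, the scaffold of centriolar satellites, was also bound by Foxn4 (5.56%; all genes 4.84%). Armc4, Iqcd, Drc7, Efcab2, Cep164, Cep63, Cep152, Cep72 and Deup1 had no peak at an end. The 55 genes that once carried a Ccdc name were bound at 14 genes by Rfx3 (25.5%; all genes 10.6%), 10 by Foxn3 (18.2%; all genes 8.82%) and 3 by Foxn4 (5.45%, near the 4.84% of all genes). Drc1, Drc7 and Deup1 are in both of these sets.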

How the data were processed

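The data were CUT&RUN peak lists of Foxn3, Foxn4 and Rfx3 in mouse retina. The submitters' processing notes name cutadapt, Bowtie2, UMI-tools, bedtools and SEACR, without order or version, and the build mm10. The threshold, the use of IgG and the pooling of libraries are not given in the sources used here. Each deposited list gives peak positions and a score per peak, made by the authors with a scaling that is not stated, and the score was used only to rank peaks within a list. Genes and start sites came from RefSeq tables of GRCm38.p6, the assembly of mm10, and coordinates count from 1. Binding, overlap (at least 1 bp), distances, motif matches and Wilson intervals were computed in Python 3.11.15 with SciPy 1.17.1. The binding rule, the overlap and the finding of planted motifs were tested on simulated data. Start-site distances, intervals and false motif matches were not. The members, gene lists and comparisons were chosen with earlier results of these data known. Of the gene list symbols, 2 matched no member (Ccdc94 and Ccdc102b). Every bound member and every ciliary member is named. Scores or positions within the list are given for members bound in every list, bound ciliary members and members with a peak in the top 5% of its list. Short motif sites were chosen after their values were seen. Alternatives were other distances, any base of a peak, higher scores, unshared peaks, start sites only and former Ccdc genes.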

Additional observations from a re-analysis of the deposited data

How the results depend on the processing

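The counts of bound members changed by over 1.5 times under 3 settings. With only peaks that had no other gene's end within 1 kb, Foxn3 was at 17 members, Foxn4 at 5, Rfx3 at 26 and every list at 2, and the ciliary members bound were 7, 1 and 8 for Foxn3, Foxn4 and Rfx3. Within 5 kb of an end, Foxn4 was at 19 members (13.9%, against 6.65% of all genes) and every list at 13 (9.49%, against 4.11%). Both shares then lay farther above those of all genes than within 1 kb. With peaks at or above the median score of their list, Foxn4 was at 6 members (4.38%, against 2.85% of all genes) and at 2 ciliary members. The cause was not tested, beyond the fewer peaks or longer reach of each setting. Of the 104 remaining members, Foxn3 was at 10 in place of 18 with unshared peaks, Foxn4 at 14 in place of 7 within 5 kb and at 4 with unshared peaks or higher scores, and every list at 9 in place of 4 within 5 kb and at 2 with unshared peaks. The other counts over all members and over ciliary members stayed within 1.5 times under the settings run. No paired analysis was possible because each antibody has 1 list with no values per library, and for the same reason no library could be left out. Depth is unknown, so a missing peak does not show that a factor was absent.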

Other observations

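Several members lay just outside the 1 kb limit. The Ccdc159 peak in the Rfx3 list was 1058 bp from the gene's end, and the farthest peak inside the limit was a Foxn3 peak of Ccdc40 at 924 bp. Ccdc187 had peaks in every list between 1206 and 1729 bp away, with Foxn3 above 98.2% and Rfx3 above 92.4% of their lists. Ccdc124 had peaks in every list between 2375 and 2604 bp away, with Rfx3 above 99.5% and Foxn3 above 94.8%.

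The 55 genes that lost the Ccdc name held the following patterns. Cep112 (once Ccdc46) and Cep85 (once Ccdc21) were bound in every list (3.64%, near the 3.06% of all genes). Cep89, Cep95, Cep120, Cfap36, Cfap45, Cfap65, Drc1 and Spice1 were bound by Foxn3 and Rfx3 only (14.5%; all genes 4.5%). Cfap53, Cfap58, Cwc25 and Ppp1r21 were bound by Rfx3 alone (7.27%; all genes 2.52%). Zfc3h1 was bound by Foxn4 alone (1.82%, near the 0.927% of all genes).

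Members with another gene's end within 1 kb of their own held peaks in larger shares, as did all genes. Of 54 such members, 38.9% were bound by Foxn3 and 38.9% by Rfx3, against 14.5% and 22.9% of the other 83. Over all genes the shares were 18% and 20.2% with such a neighbour (5426 genes) and 5.79% and 7.48% without (16461 genes).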
